A study of Mus musculus with 47 samples.

Results

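The secretoglobins, mucins and gland products examined here are 10 genes whose proteins are secreted onto mucosal surfaces: the secretoglobins Scgb1c1, Scgb1a1 and Scgb3a1, the gel-forming mucins Muc5ac and Muc5b, the chitinase-like proteins Chil3 and Chil4, and the host-defence proteins Reg3g, Ltf and Dmbt1. They were chosen by gene symbol, and all 10 were found among the 54532 genes of the expression table. Their RNA was measured in 47 polyadenylated-RNA libraries of mouse olfactory epithelium, the lining of the nose in which the odour-sensing neurons sit. For 23 libraries the strain label was C57BL/6J (wild type, WT), and for 24 it was OIVT;Kir2.1 (Kir), where Kir2.1 names a potassium channel encoded by Kcnj2. Mice of both strains were sampled at birth (P0) and on postnatal days 3, 5, 7, 10, 14 and 21 (P3 to P21). Each genotype had 4 libraries at P0 and at P7 and 3 at every other age, except Kir at P10 with 4. The labels give neither the promoter that drives the Kir2.1 transgene nor a strain background for it, so strain and transgene cannot be told apart. They also leave unstated whether libraries came from separate animals, so p-values measure only how much libraries differ, and some of that may be technical.

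The olfactory epithelium is covered by a mucus layer in which odorants dissolve before they reach the neurons. In the olfactory region much of this fluid comes from Bowman's glands and sustentacular cells, and in the neighbouring respiratory region from submucosal glands and goblet cells. Secretoglobins are small secreted proteins, mucins give mucus its gel structure, and lactoferrin, Reg3 lectins and Dmbt1 bind or kill microbes.

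Gene counts per library ran from 8107547 to 30385151. Kcnj2, the check of the genotype labels, was higher in Kir at all 7 ages, by 3.63 ± 0.21 on the log2 scale averaged over ages (edgeR adjusted p = 7.59e-14). The neuronal marker Omp lay between 110 and 1823 TPM (a level corrected for transcript length and scaled to the same total in each library) and the sustentacular marker Cyp2g1 between 336 and 5213 TPM. The ciliated-cell gene Foxj1 (56.3 to 182 TPM) was also present in each library, so the dissected tissue held RNA of other cell types besides the olfactory ones. The neutrophil gene S100a8 was present in each library too (9.01 to 85.8 TPM). The neutrophil genes Ngp and Camp fell to 0 TPM in some libraries, as at P14 in WT and P7 in Kir. Neutrophil RNA in each library is thus not shown. In such bulk samples fewer cells of a type and less RNA per cell cannot be told apart. Library titles carried a prefix, cry4 for all P0, P3, P14 and P21 libraries, cry6 for all P5 and P10 libraries, and a mix with cry3 at P7, which the labels do not explain. It was a term in the main edgeR fit. WT P0 replicate 3 was P0 by its title and P3 by its stage label. It was kept at P0, where the series design counts 4 WT libraries.

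The sequences just upstream of 4 of these genes are shown because these genes had the highest levels (Scgb1c1 and Reg3g) or are a near-identical neighbouring pair (Chil3 and Chil4). They come from the RefSeq promoter windows of build GRCm38.p6, which held 6 of the 10 genes, and run to 10 bases past the most upstream annotated start. The Scgb1c1 window is chr7:140845315-140845556 on the plus strand. The other 3 lie on the minus strand, at chr6:78468865-78469124 for Reg3g, chr3:106167555-106167814 for Chil3 and chr3:106219498-106219729 for Chil4. Capitals mark the motif TATAAA on either strand, and each sequence reads 5′ to 3′ along its gene.
Scgb1c1: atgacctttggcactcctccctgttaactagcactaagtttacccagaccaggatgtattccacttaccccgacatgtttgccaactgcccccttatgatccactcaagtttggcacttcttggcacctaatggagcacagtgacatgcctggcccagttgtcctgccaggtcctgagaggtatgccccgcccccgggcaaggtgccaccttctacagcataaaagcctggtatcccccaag
Reg3g: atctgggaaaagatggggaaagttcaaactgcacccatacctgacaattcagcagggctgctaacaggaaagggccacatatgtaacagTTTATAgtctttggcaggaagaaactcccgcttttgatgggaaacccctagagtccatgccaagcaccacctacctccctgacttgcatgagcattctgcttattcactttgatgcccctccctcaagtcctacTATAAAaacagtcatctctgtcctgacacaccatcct
Chil3: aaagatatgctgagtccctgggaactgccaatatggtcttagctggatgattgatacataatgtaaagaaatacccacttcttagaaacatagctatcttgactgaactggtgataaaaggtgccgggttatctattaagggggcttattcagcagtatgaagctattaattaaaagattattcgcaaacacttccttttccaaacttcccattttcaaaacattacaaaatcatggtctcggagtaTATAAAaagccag
Chil4: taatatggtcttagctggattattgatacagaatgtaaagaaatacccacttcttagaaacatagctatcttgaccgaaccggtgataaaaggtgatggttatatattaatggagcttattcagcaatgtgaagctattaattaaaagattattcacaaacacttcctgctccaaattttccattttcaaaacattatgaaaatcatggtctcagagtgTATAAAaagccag

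Both motifs below were searched over the whole RefSeq windows, which run further than the stretches printed and are all of 1 length. TATAAA was found on either strand in 3 of the 6 windows, those of Reg3g, Chil3 and Chil4, and in 13.6% of all 32851 RefSeq windows of the same length. In Reg3g the copy on the gene's own strand began 27 bases before the start, and in Chil3 and Chil4 it began 3 bases before it. A second motif, TGTTTNC, was found on either strand in 4 of the 6 windows and in 20.5% of all windows; the letters of these motifs cannot overlap each other. The windows of Chil3 and Chil4 were identical at 211 of 231 aligned bases (91.3%), and the gene pair lies 33925 bases apart on chromosome 3 (Chil3 at 106147554 to 106167564, Chil4 at 106201490 to 106219507). Their transcripts were identical at 94.7% of 1535 aligned bases. Of all 50-base stretches of the transcript, 29.4% in Chil3 and 20.4% in Chil4 also occur in another gene (the partner or Gm6522), so the split of reads between this pair is uncertain. Scgb1c1 shares 9.11% of such stretches with C330022C24Rik, and the other 7 genes share none.

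The 10 genes spanned a wide range of levels. Scgb1c1 was the most abundant at a mean of 3911 TPM over the 47 libraries, followed by Reg3g at 1404 TPM and Ltf at 372 TPM. Chil4 (64.8 TPM), Dmbt1 (62.4 TPM), Muc5b (36.2 TPM), Scgb3a1 (23.1 TPM) and Muc5ac (10.1 TPM) formed a middle range, and Chil3 (2.54 TPM) was low. The mean of Chil4 was carried by few libraries, as its median was 5.28 TPM. Summed over the 10 genes, WT libraries held 2828 to 3995 TPM at P0 and 10541 to 14910 TPM at P21, and Kir libraries 3330 to 4372 TPM at P0 and 8860 to 10892 TPM at P21. Scgb1a1, the club cell secretoglobin of the airway, was close to absent. It had 14 counts over all libraries, 9 of them in Kir P0 replicate 4, and was listed at 0 TPM in 43 libraries. A library with no count allows a level of up to 0.0987 to 0.37 CPM (counts scaled to library size), depending on its depth (3 counts, counting error only). Scgb1a1 did not pass the filter on low counts, so 9 of the 10 genes were tested.

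**Figure D1:**
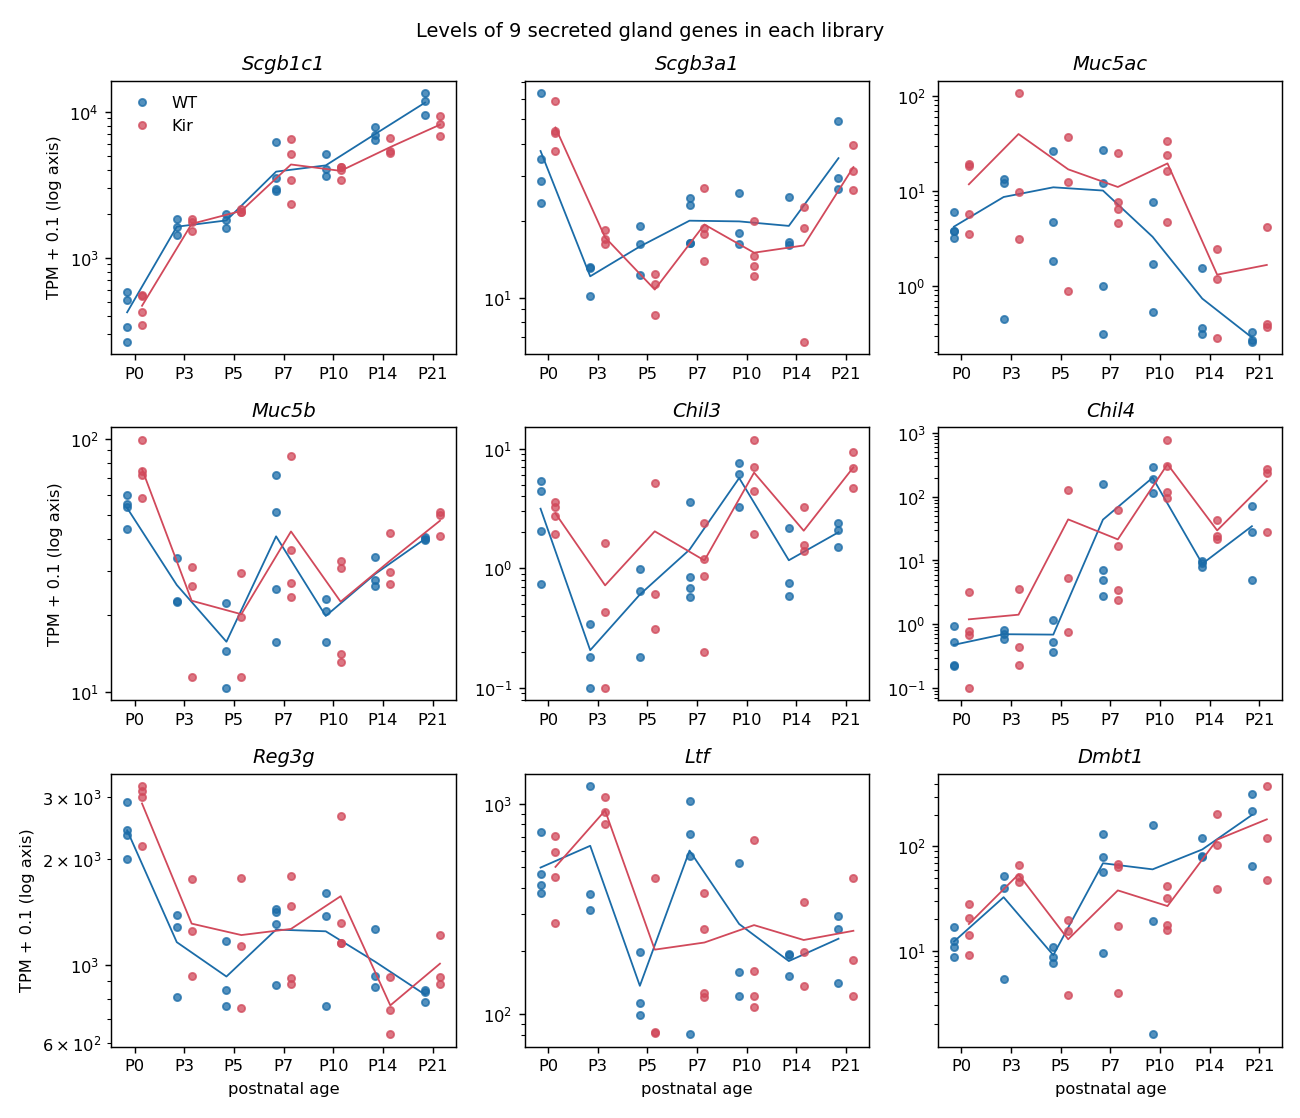
TPM plus 0.1 on a log axis (the range differs between panels) against postnatal age for 9 genes, with a point per library, blue for WT and red for Kir, and lines joining group means. Scgb1c1 climbs from 266 to 578 TPM in WT at P0 to 9453 to 13311 TPM at P21. Reg3g has its highest group means at P0, and Chil4 and Muc5ac differ widely between libraries of the same group.

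From P0 to P21 in WT, 3 of the 9 tested genes were higher (Scgb1c1, Chil4, Dmbt1), 2 were lower (Reg3g, Muc5ac) and 4 did not pass the test (Scgb3a1, Muc5b, Chil3, Ltf), at an edgeR adjusted p below 0.05. Of all 19927 genes tested, 50.6% were called in this comparison, 23.9% higher and 26.7% lower, so 5 of 9 is near the background. The median log2 change of the 9 genes was -0.46, and that of all genes was -0.05. In Kir over the same span 4 of 9 were called, against 48.7% of all genes (22.9% higher, 25.8% lower), with Scgb1c1, Chil4 and Dmbt1 higher and Reg3g lower. When all 7 WT ages were compared together, 7 of the 9 genes differed among ages (49.6% of all genes), and Muc5ac (edgeR adjusted p = 0.104) and Ltf (0.112) did not. P5 and P10 differ from the other ages in their title prefix, which this test corrects for through the P7 libraries alone.

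**Figure D2:**
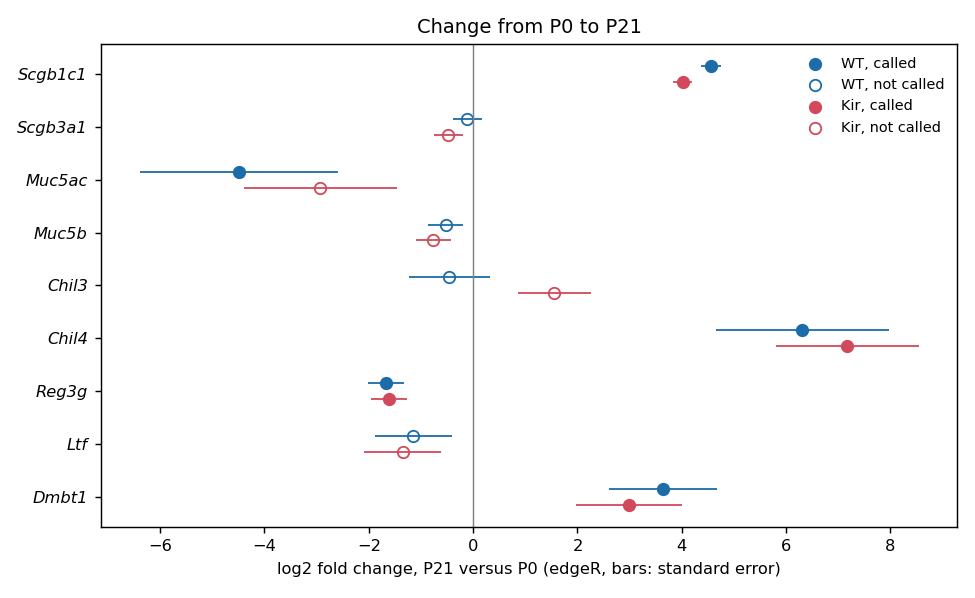
log2 fold change from P0 to P21 (horizontal axis, edgeR, bars are standard errors) for 9 genes in WT (blue) and Kir (red), with filled points for an adjusted p below 0.05. Scgb1c1, Chil4 and Dmbt1 lie to the right of 0 in both genotypes and Reg3g to the left in both.

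Scgb1c1 (ENSMUSG00000038801, chromosome 7, 140845547 to 140846769), a secretoglobin found in the nasal mucosa, rose with age. The WT P0 libraries held 335, 578, 266 and 509 TPM, and the WT P21 libraries 13311, 11790 and 9453 TPM. The Kir P0 libraries held 427, 553, 548 and 344 TPM, and the Kir P21 libraries 8261, 9302 and 6835 TPM. No P21 library overlapped a P0 library of its genotype, and each Kir P21 library lay below each WT P21 library. At P5 the order of the genotypes was opposite, at 2056, 2167 and 2044 TPM in Kir and 1594, 1816 and 1984 TPM in WT. The share of all genes without overlap, between ages or between genotypes, was not computed, here or for the genes below. The log2 change was 4.56 ± 0.19 (standard error) in WT (edgeR adjusted p = 7.73e-20) and 4.02 ± 0.18 in Kir (9.66e-19). Within libraries of a single prefix, Scgb1c1 rose from P0 to P3 by 1.79 ± 0.17, from P3 to P14 by 2.02 ± 0.19 and from P5 to P10 by 1.26 ± 0.19, each called by edgeR (adjusted p = 6.07e-09, 9.67e-10 and 7.9e-05). From P14 to P21 the log2 difference was 0.75 ± 0.18 and was not called (0.238). In that last step 0.0452% of all genes were called, compared with 20.4% from P0 to P3, 22.4% from P3 to P14 and 1.91% from P5 to P10. The WT group means followed the order of age, at 422, 1627, 1798, 3879, 4280, 7034 and 11518 TPM. Neighbouring ages overlapped in 2 of 6 steps, P3 with P5 and P7 with P10. These means are not corrected for the title prefix. At P7 the cry4 library held 6198 TPM in WT and 6521 TPM in Kir. The cry6 libraries held 2874 and 2947 TPM in WT and 2328 and 3379 TPM in Kir. The placing of P5, P7 and P10 among the cry4 ages may thus depend on the prefix. The rise ran beside that of the mature neuron markers, of which 10 of 10 were higher at P21 in WT (summed 1219 to 1823 TPM at P0 and 7412 to 7652 TPM at P21). Sustentacular markers summed to 2386 to 3758 TPM at P0 and 10980 to 13229 TPM at P21, with 6 of 10 higher and 4 lower. The part of either cell type in the Scgb1c1 result was not tested.

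Scgb3a1 (ENSMUSG00000064057, chromosome 11, 49663610 to 49665118), a secretoglobin of airway secretory cells, was lower at P3 than at P0. In WT it stood at 23.4, 63.0, 28.5 and 34.9 TPM at P0, at 13.1, 10.1 and 12.9 TPM at P3 and at 29.4, 26.6 and 49.3 TPM at P21. The P3 libraries were all lower than those of P0 and of P21, which overlapped each other. From P0 to P3 it fell by 1.82 ± 0.31 on the log2 scale (edgeR adjusted p = 7.57e-05). The later steps were not called, at 0.68 ± 0.33 from P3 to P14 (0.134) and 1.03 ± 0.31 from P14 to P21 (0.538), and P21 was not tested against P3. In the edgeR fit the difference between P21 and P0 was -0.11 ± 0.28 in WT (0.771) and -0.47 ± 0.28 in Kir (0.169).

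Muc5ac (ENSMUSG00000037974, chromosome 7, 141788972 to 141819231), the mucin of airway goblet cells, varied widely between libraries of the same group. In WT at P0 it stood at 5.97, 3.71, 3.73 and 3.07 TPM and at P21 at 0.23, 0.16 and 0.17 TPM. In Kir at P0 it stood at 3.43, 19.2, 5.65 and 18.4 TPM and at P21 at 0.30, 0.27 and 4.13 TPM. The ages did not overlap in WT but did in Kir, where P21 replicate 3 lay above P0 replicate 1. At P7 the WT libraries ranged from 0.21 to 27.0 TPM, and at P3 the Kir libraries from 3.03 to 107 TPM. The log2 change from P0 to P21 was -4.50 ± 1.90 in WT (edgeR adjusted p = 0.0484) and -2.93 ± 1.47 in Kir (0.0987). The WT call was lost when any 1 of the 7 P0 and P21 libraries was left out (adjusted p 0.0549 to 0.124). The Kir value passed in 4 of 19 alternative fits. Among them were the fits without Kir P21 replicate 3 (-5.32, edgeR adjusted p = 0.0417) and with DESeq2 (-2.90, DESeq2 adjusted p = 0.0344). Both values thus lay near the threshold.

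Muc5b (ENSMUSG00000066108, chromosome 7, 141839070 to 141873084), the main gel-forming mucin of glands, lies 19838 bases from Muc5ac and followed another course. In WT it stood at 44.0, 55.1, 59.8 and 53.4 TPM at P0, at 33.7, 22.7 and 22.4 TPM at P3 and at 40.8, 39.8 and 39.5 TPM at P21. In Kir it stood at 58.3, 74.1, 98.8 and 71.7 TPM at P0 and at 41.0, 49.7 and 51.1 TPM at P21. P0 libraries lay above P21 libraries in both genotypes, yet the fitted change was not called: -0.52 ± 0.34 in WT (edgeR adjusted p = 0.2) and -0.76 ± 0.34 in Kir (0.0608). The Kir value passed in 5 of 19 alternative fits. Among them were the fits without Kir P0 replicate 1 (-0.86, edgeR adjusted p = 0.0493), of cry4 libraries alone (-0.75, 0.00746) and with DESeq2 (-0.75, DESeq2 adjusted p = 0.0406). From P0 to P3 in WT, Muc5b fell by 1.17 ± 0.34 (0.0143).

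Chil4 (ENSMUSG00000063779), a chitinase-like lectin known from allergic airway epithelium, ranged from 0 to 779 TPM. In WT the P0 libraries held 0.12, 0.83, 0.13 and 0.42 TPM, the P10 libraries 191, 114 and 291 TPM and the P21 libraries 70.3, 27.8 and 4.92 TPM. In Kir the P0 libraries held 0, 0.68, 0.57 and 3.12 TPM, the P10 libraries 300, 119, 95.2 and 779 TPM and the P21 libraries 27.9, 272 and 232 TPM. The gene was near the detection limit at P0, highest by group mean at P10 in both genotypes and in between at P14 (7.84 to 9.60 TPM in WT, 21.7 to 42.4 TPM in Kir). Libraries of 1 group differed widely. The WT P7 libraries spanned 58.7-fold, as replicate 1 held 160 TPM and the others 2.72 to 7.11 TPM, and the Kir P5 libraries 191-fold. The log2 change from P0 to P21 was 6.31 ± 1.65 in WT (edgeR adjusted p = 0.002) and 7.17 ± 1.37 in Kir (6.41e-05). From P5 to P10 in WT it rose by 8.32 ± 1.58 (0.0025). The 4 WT P0 libraries together held 14 Chil4 counts, so the size of these changes is imprecise.

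Chil3 (ENSMUSG00000040809), its neighbour, is known as a product of myeloid cells and airway epithelium and ranged from 0 to 11.7 TPM. In WT it stood at 1.94, 5.29, 0.64 and 4.32 TPM at P0, at 0.24, 0 and 0.08 TPM at P3, at 0.08, 0.54 and 0.89 TPM at P5 and at 6.03, 3.18 and 7.53 TPM at P10. P10 libraries were all above those of P5, and P3 libraries all below those of P0. Between P0 and P3 it fell by 2.76 ± 0.99 on the log2 scale (edgeR adjusted p = 0.0439) and rose from P5 to P10 by 4.26 ± 0.89 (0.00573). At P21 it stood at 2.3, 1.4 and 2.0 TPM in WT and at 4.61, 9.29 and 6.73 TPM in Kir, with no overlap between genotypes. The difference between P21 and P0 was -0.46 ± 0.78 in WT (0.649) and 1.56 ± 0.70 in Kir (0.0655). The Kir value passed in 2 of 19 alternative fits, without Kir P0 replicate 1 (2.01, edgeR adjusted p = 0.0331) and in cry4 libraries alone (1.56, 0.0169). Macrophage markers, a cell type known to make Chil3, summed to 71.4 to 101.3 TPM in WT at P21 and 119 to 137 TPM in Kir, and neutrophil markers to 118 to 211 TPM and 69.0 to 241 TPM. Their part in the Chil3 values was not tested.

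Reg3g (ENSMUSG00000030017, chromosome 6, 78466269 to 78468872), a secreted lectin that binds Gram-positive bacteria, had its highest group mean at birth in both genotypes. In Kir, P10 overlapped P0, as P10 replicate 1 (2652 TPM) lay above P0 replicate 2. In WT it stood at 1995, 2903, 2344 and 2415 TPM at P0 and at 847, 836 and 787 TPM at P21. In Kir it stood at 3220, 2172, 2994 and 3123 TPM at P0 and at 1218, 924 and 883 TPM at P21. All P0 libraries lay above all P21 libraries. It fell by 1.66 ± 0.34 in WT (edgeR adjusted p = 0.000143) and by 1.61 ± 0.34 in Kir (0.000219). In WT the log2 difference between P3 and P0 was -1.12 ± 0.34 (0.0166). The respiratory ciliated cell markers fell over the same span, with 8 of 10 lower in WT (summed 875 to 1769 TPM at P0 and 660 to 786 TPM at P21), and their part in the Reg3g result was not tested.

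Ltf (ENSMUSG00000032496, chromosome 9, 111019271 to 111042767) encodes lactoferrin, an iron-binding protein of gland secretions and neutrophil granules. In WT it stood at 411, 378, 738 and 467 TPM at P0 and at 292, 253 and 141 TPM at P21. In Kir it stood at 588, 448, 272 and 701 TPM at P0 and at 122, 182 and 444 TPM at P21. The ages did not overlap in WT and did in Kir, and the change was not called in either: -1.14 ± 0.73 in WT (edgeR adjusted p = 0.196) and -1.35 ± 0.74 in Kir (0.13). In a fit of the cry4 libraries alone both passed, with -1.14 in WT (0.0362) and -1.34 in Kir (0.0165). Kir libraries at P3 held 1075, 912 and 805 TPM, above all other Kir groups.

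Dmbt1 (ENSMUSG00000047517, chromosome 7, 131032053 to 131121630), a scavenger-receptor protein of mucosal fluids, was higher at P21 than at P0. In WT it stood at 10.8, 8.70, 12.2 and 16.9 TPM at P0 and at 317, 218 and 64.7 TPM at P21. In Kir it stood at 28.2, 13.99, 20.6 and 9.09 TPM at P0 and at 47.1, 121 and 377 TPM at P21. All P21 libraries lay above all P0 libraries. The log2 change was 3.65 ± 1.04 in WT (edgeR adjusted p = 0.0041) and 2.99 ± 1.01 in Kir (0.0149). The Kir call rested on Kir P21 replicate 3, without which the change was 1.60 (0.221). No single WT step within a prefix was called by edgeR. The log2 differences were 1.40 ± 0.99 from P0 to P3 (adjusted p = 0.34) and 1.16 ± 1.06 from P3 to P14 (0.47). They were 1.08 ± 1.05 from P14 to P21 and 2.99 ± 1.13 from P5 to P10 (0.219). The lowest WT group mean was at P5 (10.7, 8.66 and 7.54 TPM). Ages next to each other in mean level overlapped in 6 of 6 cases in both genotypes. At P10 the WT libraries stood at 19.3, 1.48 and 160 TPM, a 108-fold range. Of 10 Bowman gland markers, 2 were higher and 3 lower in WT, with a median log2 change of -0.43. They summed to 32506 to 42929 TPM at P0 and 12105 to 23430 TPM at P21. The sum differed widely within a group, from 3434 to 81810 TPM in WT at P3, so it does not stand for the list as a whole. The part of these markers in the Dmbt1 result was not tested.

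The change from P0 to P21 was then compared between genotypes. None of the 9 genes differed by edgeR (0.251% of all genes did), 1 had an unadjusted p under 0.05, and DESeq2 called 0. That gene was Scgb1c1, whose rise was smaller in Kir by 0.54 ± 0.24 on the log2 scale (unadjusted p = 0.0314, edgeR adjusted p = 0.635).

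Averaged over the 7 ages, 1 of the 9 genes differed between Kir and WT, against 10.4% of all genes. This was Chil4, higher in Kir by 1.91 ± 0.61 on the log2 scale (edgeR adjusted p = 0.041) and higher at 6 of 7 ages. In the same comparison 8 of 10 macrophage markers were higher in Kir, and all 10 mature neuron markers were lower. Between libraries of the same group (correlations described below), neither list passed with Chil4. Its Pearson r was 0.21 with the macrophage markers (adjusted permutation p = 0.466) and -0.11 with the mature neuron markers (0.531). Group means were removed from these values, so they do not bear on the difference between genotypes. The Chil4 call was lost when any of 21 of the 47 libraries was left out. Without Kir P5 replicate 1 its value was 1.38 (0.106), without Kir P3 replicate 2 it was 1.59 (0.413) and without Kir P0 replicate 4 it was 1.68 (0.242). The other libraries whose removal ended the call left values of 1.73 to 1.98. They were WT P0 replicates 1, 3 and 4, all 3 WT P3, WT P5 replicates 1 and 3, WT P7 replicate 4, WT P10 replicates 1 and 2, all 3 WT P14, WT P21 replicate 3, Kir P14 replicate 3 and Kir P21 replicates 2 and 3. The part of macrophages or neurons in the Chil4 result was not tested.

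Muc5ac was above WT at all 7 ages, by 1.61 ± 0.57 on average, and did not pass (edgeR adjusted p = 0.0675). It passed without WT P5 replicate 3 (1.87, 0.0299), WT P10 replicate 3 (1.85, 0.0326), WT P7 replicate 2 (1.91, 0.0346) or Kir P5 replicate 1 (1.71, 0.0451), and with DESeq2 (0.00627). These were the only 5 of 59 alternative fits (edgeR, DESeq2 or limma) that gained the call. Over all 59 the Muc5ac value ran from 1.04 to 1.95, with an adjusted p of up to 0.571. The remaining 7 genes had average differences from -0.11 (Scgb3a1) to 0.74 (Chil3), with edgeR adjusted p from 0.209 to 0.991. For Scgb1c1 the average difference was -0.06 ± 0.07 and for Reg3g 0.14 ± 0.13.

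**Figure D3:**
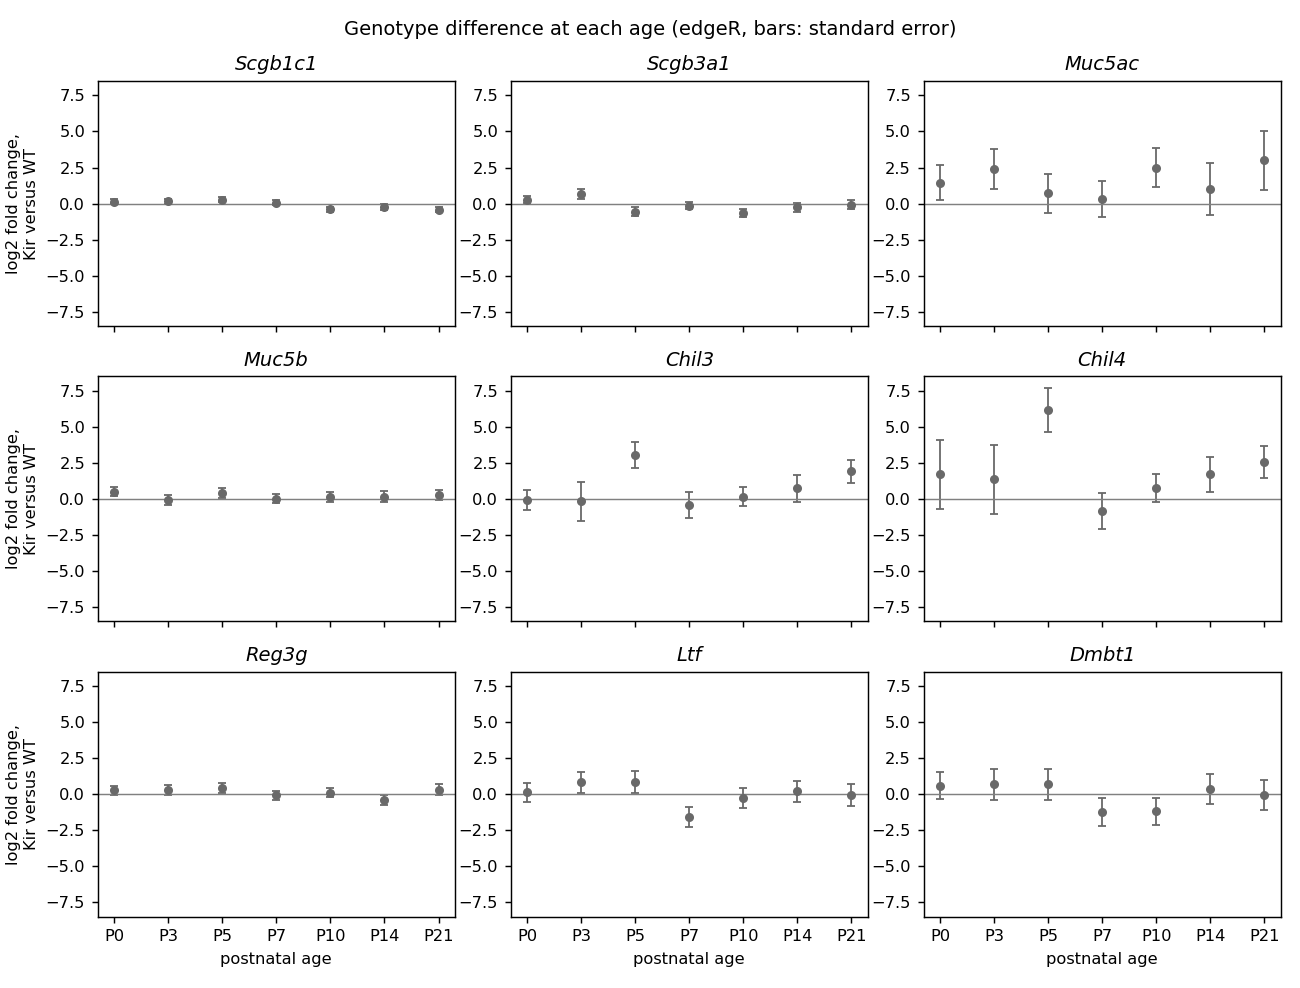
log2 fold change of Kir versus WT at each age for 9 genes (vertical axis, the same range in all panels, edgeR, bars are standard errors). Scgb1c1, Muc5b and Reg3g stay near 0, Muc5ac lies above 0 at each age, and Chil4 ranges from -0.85 at P7 to 6.16 at P5.

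Within single ages, none of the 63 gene and age pairs was called by edgeR, where of all genes 0.984% were called at P0, 0.713% at P3, 0.115% at P5, 0.0753% at P7, 3.11% at P10, 1.18% at P14 and 0.758% at P21. An unadjusted p under 0.05 was seen in 8 pairs, and DESeq2 called 1, Chil4 at P5. There the Kir libraries held 126, 5.28 and 0.66 TPM and the WT libraries 0.27, 1.07 and 0.42 TPM. The groups overlapped, and Kir P5 replicate 1 lay far above the other 2 Kir libraries; in it Chil3 was also the highest of its group at 5.09 TPM. The log2 difference was 6.16 ± 1.51 (edgeR adjusted p = 0.133, DESeq2 adjusted p = 0.000748). At P14, Chil4 did not overlap between genotypes, at 24.4, 21.7 and 42.4 TPM in Kir and 9.60, 8.86 and 7.84 TPM in WT, and was not called (1.71 ± 1.20, 0.842). The genotypes also did not overlap for Scgb3a1 at P3, Scgb1c1 at P5, and Scgb1c1, Muc5ac, Muc5b, Chil3 and Reg3g at P21. None of these was called by edgeR, and the share of all genes without overlap was not computed. With so few libraries in a group, some genes separate by chance alone. A genotype difference that changed with age was called for none of the 9 genes (0.256% of all genes), with an unadjusted p under 0.05 for Scgb1c1 and Chil4 and no call by limma.

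Variation between libraries of the same group was large for several genes, and some genes varied together. Deviations of log2(TPM + 1) from the group mean were correlated over the 47 libraries for 36 gene pairs and 54 pairs of a gene with the mean of a marker list, 90 relations in all, with 100000 permutations within groups. Of the gene pairs 2 passed after Benjamini-Hochberg adjustment, and of the gene and marker pairs 7. Chil3 and Chil4 varied together (Pearson r = 0.67, permutation p = 0.00029, adjusted 0.013; Spearman rho = 0.62, permutation p = 0.00027, adjusted 0.0121), with r = 0.54 without the 2 libraries farthest from the median, 0.53 in cry4 and 0.75 in cry6 libraries. They share sequence, as given above. Muc5ac and Ltf had r = 0.54 (permutation p = 0.00355, adjusted 0.0367) and rho = 0.48 (permutation p = 0.00555, adjusted 0.0555), with r = 0.57 without the 2 farthest libraries, 0.24 in cry4 and 0.73 in cry6 libraries.

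Dmbt1 varied with the Bowman gland markers (r = 0.63, permutation p = 0.00346, adjusted 0.0367; rho = 0.54, permutation p = 0.00231, adjusted 0.0346), with r = 0.51 without the 2 farthest libraries, 0.45 in cry4 and 0.73 in cry6. Ltf varied with the same list (r = 0.53, permutation p = 0.00165, adjusted 0.0247; rho = 0.52, permutation p = 0.00292, adjusted 0.037), with r = 0.52 without the 2 farthest and 0.36 in cry4 and 0.73 in cry6. Which genes of the Bowman gland list carry these relations was not tested. The correlated values are deviations from group means, so differences between ages and genotypes do not enter them. At P7, where a group holds several prefixes, differences between prefixes do. The ciliated cell markers varied with Ltf (r = 0.55, permutation p = 0.00047, adjusted 0.0141; rho = 0.58, permutation p = 0.00044, adjusted 0.0132), with r = 0.54 without the 2 farthest, 0.43 in cry4 and 0.79 in cry6. They also varied with Reg3g (r = 0.54, permutation p = 0.00367, adjusted 0.0367; rho = 0.51, permutation p = 0.00329, adjusted 0.037), with r = 0.45 without the 2 farthest, 0.49 in cry4 and 0.72 in cry6.

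Scgb1c1 varied instead with the mature neuron markers (r = 0.56, permutation p = 0.00074, adjusted 0.0166; rho = 0.56, permutation p = 0.0021, adjusted 0.0346), with r = 0.56 without the 2 farthest, 0.64 in cry4 and 0.49 in cry6. Ltf varied against them (r = -0.42, permutation p = 0.00105, adjusted 0.0189; rho = -0.49, permutation p = 0.00144, adjusted 0.0324), with r = -0.43 without the 2 farthest, -0.41 in cry4 and -0.61 in cry6. Muc5ac varied against the neutrophil markers (r = -0.40, permutation p = 6e-05, adjusted 0.0054; rho = -0.49, permutation p = 0.00024, adjusted 0.0121), with r = -0.45 without the 2 farthest, -0.45 in cry4 and -0.47 in cry6. Ltf with the neutrophil markers did not pass (r = -0.20, permutation p = 0.157, adjusted 0.33), and the cell source of the Ltf RNA was not tested. Without the P7 libraries, an alternative chosen after seeing the data, all 9 relations kept their sign over 39 libraries and 5 passed. These were Scgb1c1 with the mature neuron markers (r = 0.65, permutation p = 0.00074, adjusted 0.0222), Muc5ac with the neutrophil markers (-0.42, 0.00039, 0.0175), Ltf (0.66, 0.00039, 0.0175) and Reg3g (0.60, 0.00153, 0.0344) with the ciliated cell markers, and Dmbt1 with the Bowman gland markers (0.70, 0.00333, 0.0499). The other 4 did not pass: Chil3 with Chil4 (r = 0.59, permutation p = 0.00625, adjusted 0.0617), Muc5ac with Ltf (0.46, 0.024, 0.135), and Ltf with the Bowman gland markers (0.59, 0.00489, 0.0617) and with the mature neuron markers (-0.42, 0.00659, 0.0617). Muc5b with the sustentacular markers passed only there (0.48, 0.00295, 0.0499). TPM values sum to a fixed total in each library, which links the levels of all genes in it.

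**Figure D4:**
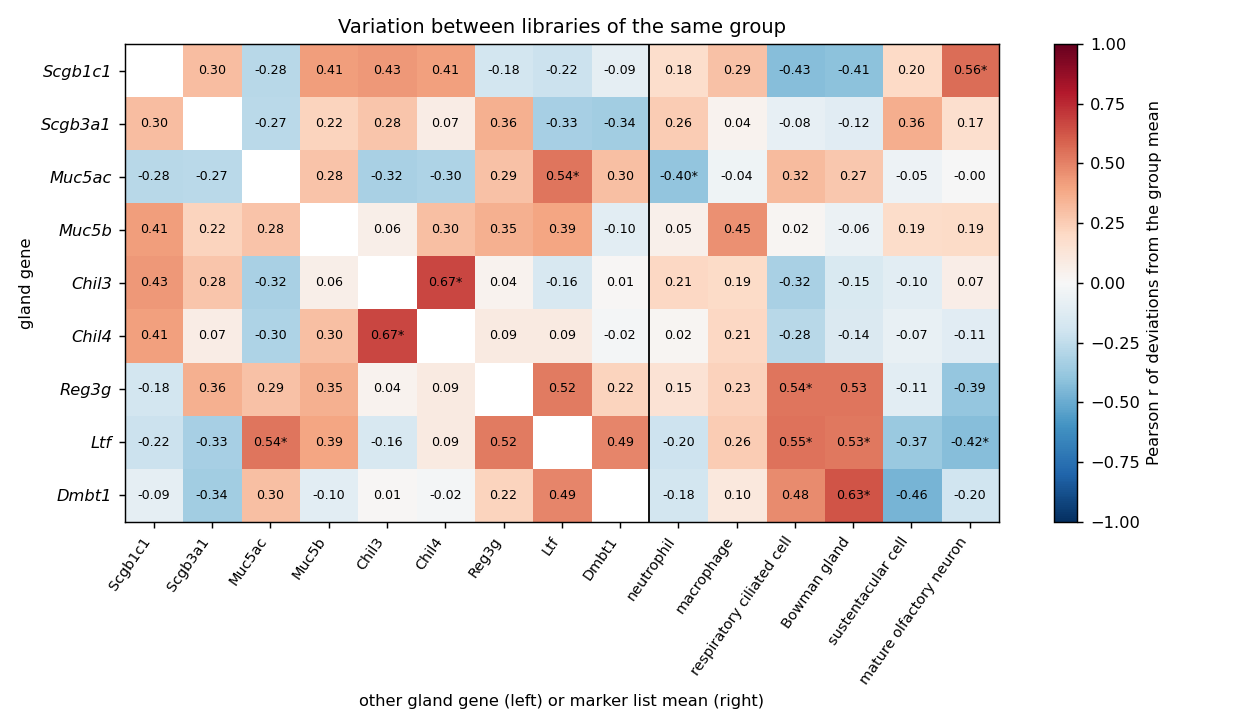
Pearson r of deviations from the group mean over 47 libraries, for 9 genes (rows) against each other (left of the line) and against the means of 6 marker lists (right), with an asterisk for an adjusted permutation p below 0.05. Chil3 with Chil4 (0.67) and Dmbt1 with Bowman gland markers (0.63) are the strongest positive values.

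The genes whose mean levels over the 14 groups were most like each member were found among 18650 genes, as a description without a test. For Scgb1c1 they were Srd5a2 (r = 0.99), Pard3bos2 (0.99) and Nr3c2 (0.99), for Reg3g they were Cdhr4 (0.96), Cckar (0.96) and Fxyd4 (0.95), and for Dmbt1 they were A730081D07Rik (0.97), Aspa (0.96) and Azgp1 (0.96). For Ltf they were Igsf5 (0.96), BC006965 (0.95) and Tcaf2 (0.94), and for Muc5b they were Khnyn (0.94), Slc44a2 (0.93) and Prelp (0.92). For Muc5ac they included Limd1 (0.92) and Renbp (0.92), and for Scgb3a1 they were 9530062K07Rik (0.91), 4930431P19Rik (0.91) and Ctbs (0.89). Chil4 was closest to the sodium channel subunit Scnn1g (0.92), the class II invariant chain Cd74 (0.91) and Rom1 (0.91), and Chil3 to Pdzk1ip1 (0.91), the sodium channel subunit Scnn1a (0.87) and Tmem173 (0.82). Over the 47 single libraries the lists changed: for Scgb1c1 2 of its 3 genes remained, for Chil3 and Chil4 1 each, and for the other 6 members none. The nearest gene to Chil3 was then Chil4 (0.68), and those nearest to Chil4 were Cd74 (0.82), H2-Eb1 (0.81) and H2-Ab1 (0.80), genes of class II antigen presentation.

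Related genes were mixed in direction from P0 to P21 in WT, again beside 50.6% of all genes called. Of 11 other secretoglobins and mucins tested, 3 were higher, Muc16 (log2 change 2.34), Muc2 (2.03) and Muc20 (0.41), and 2 lower, the salivary-type gel-forming mucin Muc19 (-4.78 ± 0.72, edgeR adjusted p = 1.25e-06) and the membrane mucin Muc1 (-0.81). Of 20 genes of the mucous secretory programme, 3 were higher and 10 lower. The higher ones were the mucin glycosyltransferase Gcnt3 (5.20), the anion exchanger Slc26a4 (1.32) and the mucin-folding protein Agr2 (1.26), and the 3 largest decreases among genes of at least 1 mean CPM were Gp2 (-3.36) and the goblet cell transcription factors Foxa1 (-2.32) and Spdef (-2.29). Foxa2, below that level, was also lower (-2.94, edgeR adjusted p = 0.027). Of 19 gland secretion and transport genes, 4 were higher, among them Azgp1 (1.93) and the water channels Aqp3 (0.63) and Aqp4 (0.53), and 9 lower, among them lysozyme Lyz1 (-5.22), the serous-cell transcription factor Bhlha15 (-3.29) and the muscarinic receptor Chrm3 (-2.51). Of 15 other antimicrobial and chitinase-family genes, 3 were higher, the chitinase-like Chil6 (5.63 ± 0.39, edgeR adjusted p = 2.75e-13) and Chil5 (1.73) and the chitinase Chia1 (0.68), and 6 lower, among them Chit1 (-4.69), Lcn2 (-2.59) and Itln1 (-2.26).

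The call of Chil5 was lost with limma (0.45, adjusted p = 0.111 with pseudocount 1, and 1.26, 0.0806 with pseudocount 0.1). Some of these calls rested on single libraries. Without WT P21 replicate 3, Muc20 (0.26, edgeR adjusted p = 0.256), Slc26a4 (1.15, 0.0864), Aqp3 (0.50, 0.0771), Aqp4 (0.49, 0.0521), Bhlha15 (-3.33, 0.064) and Chit1 (-4.03, 0.104) were no longer called. Without WT P0 replicate 4, Muc1 (-0.59, 0.0615) and Slc26a4 (1.07, 0.0752) were not called. Without WT P0 replicate 1, Muc20 (0.35, 0.0983), Slc26a4 (1.13, 0.0715) and Aqp4 (0.36, 0.0881) were not called. Without WT P21 replicate 1, Muc20 (0.44, 0.0501), Muc1 (-0.73, 0.0527), Bhlha15 (-3.02, 0.0838) and Chit1 (-4.22, 0.0871) were not called. Without WT P0 replicate 3, Muc20 (0.37, 0.0851) and Chit1 (-4.17, 0.0738) were not called, and the same held for Muc20 without WT P0 replicate 2 (0.39, 0.0642) and Bhlha15 without WT P21 replicate 2 (-3.53, 0.0507). In Kir the same lists had 3 higher and 1 lower of 11, 2 and 11 of 20, 4 and 8 of 19, and 3 and 7 of 15. Averaged over ages, the genotypes differed in 3 of these 65 genes, against 10.4% of all genes. Muc4 (0.35 ± 0.07, edgeR adjusted p = 0.000178) and Muc20 (0.22 ± 0.06, 0.016) were higher in Kir, and the sodium pump subunit Atp1b1 (-0.26 ± 0.04, 2.58e-05) was lower. The calls of both mucins were lost in cry4 libraries alone (Muc4 0.30, 0.0574; Muc20 0.23, 0.128) and with the replicate number as a block in those libraries (0.30, 0.0943, and 0.24, 0.149).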

How the data were processed

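Per the submitters' processing notes the authors used bcl2fastq 2.18, STAR 2.6.1c, RSEM and build mm10. The deposited tables hold whole-number counts per gene, with lines for reads that name no gene (unmapped 1.31% to 33.49% and multiply mapped 5.17% to 20.58% of a library, left out here), and TPM, which the authors made with RSEM. RSEM shares reads among copies and the counts leave multiply mapped reads out, which bears on Chil3 and Chil4. The strand setting was not given in the sources used here, so overlapping antisense reads cannot be told apart.

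Counts were tested with edgeR 4.0.16 in R 4.3.3 (quasi-likelihood F tests, two-sided, TMM, filterByExpr, a mean per group and the title prefix, 1 fit of 47 libraries, Benjamini-Hochberg over 19927 genes, called below 0.05). A standard error is the log2 change divided by the square root of F. The averaged genotype effect weights the 7 ages equally. DESeq2 1.42.0 and limma 3.58.1 on log2(TPM + a pseudocount) were alternatives. The code was tested on simulated counts. Replicate numbers are those in the titles for the cry4 libraries. The cry6 titles end in longer numbers and the cry3 titles carry none, so the replicate numbers of those libraries were assigned here. No replicates were identical (chi-square per gene 7.24 to 115.91 over 57 pairs). Positions are GENCODE M21 on GRCm38.

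The genes and lists were chosen with earlier results of these data known. Named related genes are up to 3 called higher and 3 called lower per list with the largest change (at least 1 mean CPM), and like genes are the 3 with the highest r, of which 1 is not reported here. The correlations within groups were added after the data had been examined.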

Additional observations from a re-analysis of the deposited data

Results flagged for a closer look

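In groups of 4 libraries, 45 sets of values were examined for a single library far from the other 3, by the gap to its nearest neighbour as a share of the group's range (critical value 0.829), and 5 stood out. For normally distributed values chance alone marks about 1 in 20 such groups. The TPM values were not log-transformed here, so that rate may not hold. All 5 were the highest value of their group. In WT P7 replicate 1, Chil4 stood at 159.63 TPM and Chil3 at 3.5 TPM, both far above the other 3 libraries. In Kir P10 replicate 1, Reg3g stood at 2651.59 TPM and Ltf at 670.85 TPM. In Kir P7 replicate 2, Muc5ac stood at 25.3 TPM. The P7 groups mix title prefixes: that WT library is the only cry4 library of its group, and that Kir library is 1 of 2 cry6 libraries of its group. No cause was tested for any of the 5.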

How the results depend on the processing

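Of 873 recomputed values for the 9 genes, 767 kept direction and side of the threshold, 41 lost the call, 19 gained it and 46 changed sign; of 614 for related genes 584 held and 30 lost the call. Chil4 averaged over ages accounts for 27 of the losses and Muc5ac in WT for 12. For Kir P21 versus P0 the cry4 libraries alone gave 7 called genes (4 in the full data), adding Muc5b, Chil3 and Ltf. For Kir versus WT averaged over ages (1 called), DESeq2 gave 2, and no low-count filter, limma with either pseudocount, no prefix term and cry4 libraries alone gave 0 each; leaving out single libraries gave 0 to 2. Within ages DESeq2 gave 1 (0 by edgeR). The cause was not tested.

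Sign changes were in values that were not called. Averaged over ages, Scgb3a1 (-0.11) was 0.15 in cry4 libraries alone. Ltf (0.02) was -0.02 with limma (-0.0185 and -0.0189), -0.10 without the 2 Kir P10 libraries with most unmapped reads, and -0.18 to 0.18 without single libraries. Dmbt1 (-0.02) was 0.13 and 0.16 with limma, 0.0356 without the prefix term, 0.39 in cry4 libraries alone, 0.0126 with WT P0 replicate 3 placed in P3, and -0.21 to 0.37 without single libraries. Scgb3a1 in WT P21 versus P0 (-0.11) ran from -0.49 to 0.19.

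Same-numbered libraries were not treated as pairs. Of 13 correlations at 4 ages 4 were over 0.1 (range -0.192 to 0.304), 3 of them at P3 (0.172 to 0.286), where each library was closest to its own number. With a replicate block on cry4 libraries, 0 genes were called for averaged genotype (1 in the full data, 0 in cry4 libraries without a block). For Kir P21 versus P0 the block gave 6 (4 in the full data, 7 in cry4 libraries without a block). Against the full data, Muc5ac (-3.76, edgeR adjusted p = 0.0335), Muc5b (-0.73, 0.0199) and Ltf (-1.31, 0.0436) were gained and Dmbt1 (2.21, 0.0966) was lost. Muc5b and Ltf were also gained in cry4 libraries without a block, where Muc5ac was not gained and Dmbt1 was not lost. The averaged values of Scgb3a1 and Dmbt1 became 0.17 and 0.25 (0.15 and 0.39 in cry4 libraries without a block). Not run were DESeq2 for tests of several coefficients, and the cry4-only and block fits for age steps and single ages. Across scalings the median gene moved by at most about 0.11, in limma with pseudocount 0.1 (0.06 against -0.05 in WT). Depth limits Scgb1a1, and Chil3 and Chil4 at P0 and P3.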
